A study of Caenorhabditis elegans with 12 samples.

Results

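The comparison set daf-2(e1370); daf-42(ys54) larvae of strain LJ2703, the double mutant below, against daf-2(e1370) larvae of strain CB1370 at 60 h after egg laying, with 3 RNA-seq libraries of polyadenylated whole-animal RNA in each group. These were the 6 of the 12 libraries of the series whose titles give 60 h, and the other 6 hold the same strains at 52 h. Both groups carry daf-2(e1370), were laid within 2 h at 15 °C on plates of OP50 bacteria and were then raised at 25 °C, which induces dauer in daf-2 larvae. They differ by the ys54 allele of daf-42 and, per the labels' protocols, by the state of the animals, since the 60 h harvest of the double mutant included dead as well as living L2d larvae. The share of dead larvae is not given, so the effect of the genotype and that of death cannot be told apart in any value below. Nor can that of any difference in larval stage between the groups, such as progress into dauer. Each genotype is represented by 1 strain, and nothing in the labels says whether the replicates were separate cultures, so the p-values measure only the spread between these samples.

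Dauer is an alternative, long-lived larval stage that Caenorhabditis elegans enters through a lipid-storing second stage, the L2d. Entry is set by insulin-like, TGF-beta and steroid hormone signalling, and the larva then builds a dauer cuticle, shuts its mouth and changes its metabolism. The product of daf-2 is the insulin-like receptor of the worm, and its e1370 allele sends larvae into dauer at raised temperature, and daf-42 encodes a secreted protein that larvae need to survive dauer entry.

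The 6 libraries held 30011686 to 41039421 estimated counts. Replicates spread more at 60 h than at 52 h, with a median SD of log2 CPM (counts per 1000000 after TMM scaling) of 0.363 in daf-2 and 0.374 in the double mutant against 0.184 and 0.206 at 52 h. The level of a gene also followed the length of its transcript, and this trend differed between libraries. The Spearman correlation of a gene's deviation from its mean over all 12 libraries with its length was 0.104, 0.384 and -0.278 in daf-2 replicates 1, 2 and 3, and -0.178, -0.663 and -0.503 in the double mutant. Long transcripts were thus relatively low in 4 libraries, among them daf-2 replicate 3, and the ranges of the groups overlapped (exact two-sided permutation p = 0.2, where 0.1 is the smallest p that 3 against 3 can give). Within 813 genes that have transcripts differing in length by at least 2 times, the median share of counts on the longest transcript was 64.2%, 70.6% and 65.0% in daf-2 and 64.1%, 54.4% and 61.5% in the double mutant. All 3 double-mutant shares lay below the daf-2 shares, the first by little (exact two-sided permutation p = 0.1). The double-mutant mean was 6.66 percentage points below that of daf-2, and 3.85 below without double-mutant replicate 2. The depositors' length correction moved alike, since length minus effective length was 224, 234 and 227 bases in daf-2 and 223, 218 and 222 bases in the double mutant.

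Accordingly, fold changes fell with length. Among the 1398 tested genes with transcripts under 500 bases the median log2 fold change, double mutant over daf-2, was 0.67, and among the 567 genes of 4000 bases or more it was -1.30. Across genes, which are not independent replicates, fold change and length had a Spearman correlation of -0.492. A second fit therefore took each library's trend with length out as an offset, after which that correlation was 0.015. Values and calls below are those without the offset unless the offset is named. The fits that left out 1 library had no offset. The part that RNA quality plays in the results was not tested.

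**Figure D1:**
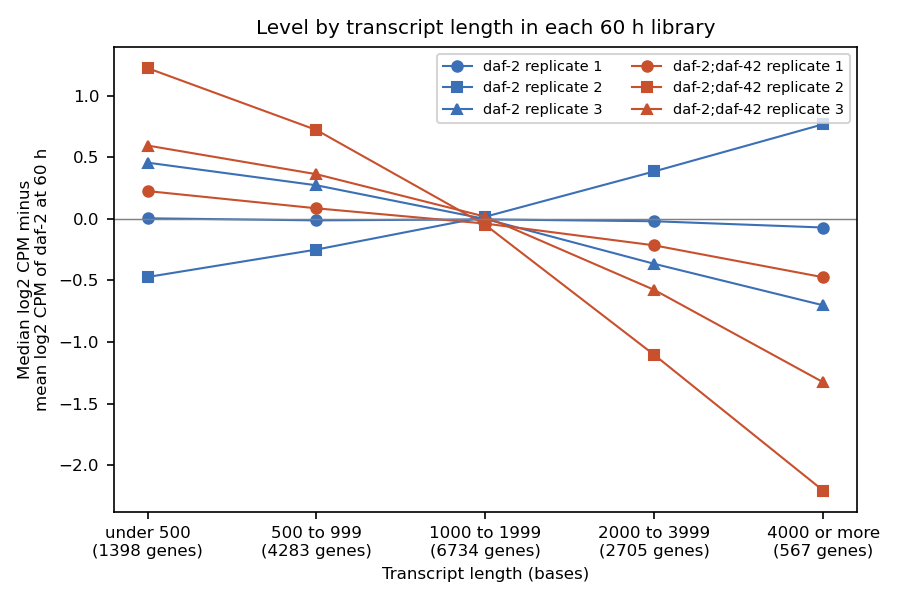
Median over genes of log2 CPM minus the mean log2 CPM of the 3 daf-2 libraries at 60 h, by class of transcript length, with 1 line for each 60 h library (blue daf-2, red daf-2;daf-42, marker shape the replicate). Double-mutant replicate 2 runs from 1.23 in the shortest class to -2.21 in the longest, daf-2 replicate 2 slopes the other way, and daf-2 replicate 3 slopes down like double-mutant replicate 1.

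Of 15687 genes tested at 60 h, edgeR's quasi-likelihood test called 2294 at an adjusted p under 0.05, which is 14.6%. Of these, 1368 were higher in the double mutant (8.72%) and 926 were lower (5.9%), and 2062 differed at least 2-fold. With the length offset 3981 genes were called (25.4%), 2176 of them higher (13.9%) and 1805 lower (11.5%). In both fits 2156 genes (13.7%) were called in the same direction, 1295 of them higher (8.26%) and 861 lower (5.49%), with no call of opposite sign. The 6 libraries of a gene did not overlap between groups in 6220 genes (39.7%), and the median log2 fold change over all tested genes was -0.02. In these whole animals fewer cells of a type and less RNA per cell cannot be told apart. Single libraries moved the count. It was 944 of 15987 tested without daf-2 replicate 1, 948 of 15924 without daf-2 replicate 2 and 2378 of 15990 without daf-2 replicate 3. It was 3912 of 16087 without double-mutant replicate 1, 1294 of 16078 without double-mutant replicate 2 and 775 of 16062 without double-mutant replicate 3. These are the counts over all genes beside which list counts without 1 library stand below. There remained 678 of the 15687 genes, 405 higher and 273 lower, that were called in both fits and in all 6 fits that left out 1 library, and such a gene is called stable below. Counts of gene lists below are over the members that passed the count filter, which a gene can pass through 1 group alone, so they describe those members and not the whole list. Of the 88 genes whose 6 values are printed below, the groups overlapped in 3, daf-2, hsp-70 and hsp-1, and in no other. Most of the 88 were picked for a call in both fits, and the largest rises and falls for lack of overlap. The count thus largely follows from the choice.

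The targeted gene daf-42 has its locus on the minus strand of chromosome IV, between 7333638 and 7346851 in build WBcel235. The values of daf-42 were 938, 2054 and 508 CPM in daf-2 and 259.5, 74.8 and 147 CPM in the double mutant. Every double-mutant library was below every daf-2 library, and the log2 fold change was -2.86 (SE 0.654, edgeR adjusted p = 0.0269). Here and below SE is the absolute log2 fold change divided by the square root of the quasi-likelihood F. With the length offset it was -1.61 (adjusted p = 0.00167), and the call in the fit without offset was lost when daf-2 replicate 1 or 2 or double-mutant replicate 2 or 3 was left out (adjusted p from 0.067 to 0.113). The lesion of ys54 is not given in the sources used here, so the RNA level alone does not check the labels. The long daf-42 transcript of 4885 bases belongs to the length class that was lowest in the double mutant. For daf-2, whose mutation both strains share, daf-2 was at 154, 258 and 82 CPM in daf-2 and at 97.5, 17.4 and 37.8 CPM in the double mutant. It was not called (log2 fold change -1.69, adjusted p = 0.11, and -0.46 with the offset).

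The genes described first are the 12 largest rises and 12 largest falls among genes called in both fits, with no overlap between groups and a mean log2 CPM of at least 3. Most of the largest falls were in genes that stood high in daf-2. Among them were scl-11, scl-12 and scl-13, which encode small secreted proteins of the SCP/TAPS family, and the venom-allergen-like vap-2 of the same family. scl-11 was measured at 1069, 943 and 1152 CPM in daf-2 and 8.45, 19.2 and 17 CPM in the double mutant. Its log2 fold change was -6.15 (SE 0.459, adjusted p = 0.000596) and -6.71 with the offset. In daf-2 scl-12 was at 2433, 2323 and 3059 CPM, and in the double mutant at 61.1, 118 and 88.1 CPM. scl-13 stood at 1737, 1647 and 2295 CPM in daf-2 and at 35.2, 72.2 and 56.7 CPM in the double mutant. The replicates of each group lay close together and far from the other group, with log2 fold changes of -4.87 for scl-12 and -5.11 for scl-13. The genes scl-13 and scl-12 lie side by side on chromosome V between 3810785 and 3813437. The values of vap-2 were 141, 182 and 227 CPM in daf-2 and 4.3, 5.26 and 3.87 CPM in the double mutant. In vap-2 the log2 fold change was -5.36 (SE 0.333, adjusted p = 0.000449). The family did not fall as a whole. Of 18 tested SCP/TAPS genes, 3 rose and 4 fell, 5 of them stable, and the median log2 fold change was 0.45. This is 38.9% called, against 14.6% over all genes.

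Large falls were also found in a group of F47B8 genes on chromosome V. F47B8.18 was measured at 618, 491 and 816 CPM in daf-2 and 2.28, 1.86 and 2.45 CPM in the double mutant. Its log2 fold change was -8.19 (SE 0.418, adjusted p = 0.000449), the largest of the 12 falls. In daf-2 F47B8.14 was at 636, 909 and 886 CPM, and in the double mutant at 37.5, 23.6 and 42.2 CPM. F47B8.13 stood at 935, 853 and 1420 CPM in daf-2 and at 70.2, 77.1 and 94.7 CPM in the double mutant. F47B8.14 and F47B8.13 fell by 4.56 and 3.73 on the log2 scale. These 3 genes lie between 14318961 and 14325464. F47B8.3 and F47B8.4 in the same stretch rose by 1.27 and 1.20, and F47B8.5, the next gene after it, rose by 1.51. Estimated counts of F47B8.13, F47B8.14 and F47B8.18 were in part shared with other transcripts in 2 or 3 of the 12 libraries. The call of F47B8.3 was lost when daf-2 replicate 1 or 2 or double-mutant replicate 3 was left out (highest adjusted p 0.0934). F47B8.4 lost its call when daf-2 replicate 1 or 2 or double-mutant replicate 2 or 3 was left out (highest adjusted p 0.0887). The call of F47B8.5 was lost when daf-2 replicate 2 or 3 or double-mutant replicate 2 or 3 was left out (highest adjusted p 0.104).

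A tyrosinase-like gene, an ATPase gene and 3 genes without a name separated the groups in the same way. The values of tyr-3 were 374, 545 and 439.7 CPM in daf-2 and 24, 27 and 32.4 CPM in the double mutant. This tyrosinase-like gene, of a family that oxidises tyrosine residues, fell by 4.03 on the log2 scale (SE 0.32, adjusted p = 0.000658). catp-2 was measured at 80.3, 134 and 52.3 CPM in daf-2 and 2.37, 2.01 and 3.23 CPM in the double mutant. This gene of the cation-transporting ATPase family, long at 3138 bases, fell by 5.13 and still by 4.23 with the offset. In daf-2 F57F4.2 was at 1317, 1335 and 1357 CPM, and in the double mutant at 34, 65.3 and 59.6 CPM. Its 3 daf-2 libraries were almost equal and its log2 fold change was -4.66 (SE 0.393, adjusted p = 0.000742). The remaining genes of the 12 largest falls, T05B4.12 and F01F1.14, changed by -4.33 and -4.11. F01F1.14 overlaps hpo-10 on the genome, and vap-2 overlaps ttr-14, and the sources used here do not say whether strand was used in counting, so reads of such pairs cannot be told apart.

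The largest rises were in genes that were low in daf-2. C45B2.2 stood at 4.15, 1.86 and 4.08 CPM in daf-2 and at 422, 1470 and 712 CPM in the double mutant. Its log2 fold change was 8.01 (SE 0.702, adjusted p = 0.000779), and with the offset 7.25. The values of C45B2.1 were 0.597, 0.327 and 1.2 CPM in daf-2 and 66.3, 192 and 87 CPM in the double mutant. All 4 neighbouring genes C45B2.3, C45B2.2, C45B2.1 and C45B2.8, on the plus strand of chromosome X between 6082960 and 6088412, rose. C45B2.8 was measured at 0.149, 0.164 and 0.12 CPM in daf-2 and 56.1, 260.5 and 89.5 CPM in the double mutant. In daf-2 C45B2.3 was at 0, 0 and 0 CPM, and in the double mutant at 4.46, 22.6 and 5.57 CPM. In each of these genes double-mutant replicate 2 was the highest library, and that library was the lowest in long transcripts. The annotation used here gives these short genes, with transcripts of 324 to 402 bases, no further name.

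A second cluster lies on chromosome II. srlf-34 stood at 10.8, 4.84 and 14.8 CPM in daf-2 and at 1122, 3754 and 2253 CPM in the double mutant. The gene rose by 7.87 on the log2 scale (SE 0.748, adjusted p = 0.000984). It sits inside gcy-5, which encodes a receptor guanylyl cyclase of a salt-sensing neuron, on the opposite strand. The values of gcy-5 were 0.657, 1.08 and 0.288 CPM in daf-2 and 10.7, 9.17 and 10.7 CPM in the double mutant. The cyclase was called higher too (3.94, adjusted p = 0.00158), as was idpp-8 (1.32) beside it. M02G9.4 was measured at 0.0299, 0 and 0 CPM in daf-2 and 0.78, 0.65 and 0.453 CPM in the double mutant. This neighbour was also called higher, and reads of overlapping genes cannot be told apart here.

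Metal-responsive genes were among the largest rises. In daf-2 numr-1 was at 1.64, 1.96 and 2.33 CPM, and in the double mutant at 90.1, 206 and 69.4 CPM. numr-1 and numr-2, which respond to cadmium, have identical values and near-identical transcripts, so they are 1 signal, with a log2 fold change of 5.94 (SE 0.517, adjusted p = 0.000775). Of 14 tested metallothionein, cadmium-response and desiccation genes, 4 rose and 1 fell, 2 of them stable, and the calls numbered 2 without daf-2 replicate 1 and 4 without daf-2 replicate 3. This is 35.7% called, against 14.6% over all genes. cdr-3 stood at 1.73, 1.41 and 2.26 CPM in daf-2 and at 5.87, 14.2 and 6.64 CPM in the double mutant. This cadmium-responsive gene rose by 2.30, and cdr-1 by 1.88, both stable. The values of mtl-2 were 10.8, 6.18 and 19.5 CPM in daf-2 and 34.7, 67.5 and 56.2 CPM in the double mutant. The metallothionein mtl-2 rose by 2.11 (adjusted p = 0.0212). mtl-2 lost its call when daf-2 replicate 1 or 2 or double-mutant replicate 2 or 3 was left out (highest adjusted p 0.0836).

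Genes of short peptides and genes without a name were also among the 12 largest rises, which further hold cnc-4, nlp-29 and ilys-2, described with the defence genes. nspe-4 was measured at 1.43, 2 and 1.85 CPM in daf-2 and 44.8, 116 and 81.3 CPM in the double mutant. This gene of a nematode-specific peptide family rose by 5.52, and nspe-1 in the same stretch of chromosome II by 3.19. Family members lying between them were not called in both fits. In daf-2 F53A9.7 was at 8.75, 4.74 and 7.78 CPM, and in the double mutant at 202, 416 and 302 CPM. It rose by 5.43, and its neighbours on chromosome X between 8709764 and 8718904, kreg-1, F53A9.1, F53A9.6 and F53A9.8, rose by 2.44, 2.21, 3.38 and 1.94. F53F1.4 stood at 12.3, 4.35 and 3 CPM in daf-2 and at 238, 324 and 319 CPM in the double mutant. This gene rose by 5.49, next to the cuticlin gene cut-2. W02D9.6 rose by 5.11. All 24 genes named as the largest rises and falls were stable. The call of F53A9.8 was lost when daf-2 replicate 1 or 2 or double-mutant replicate 2 or 3 was left out (highest adjusted p 0.0908).

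**Figure D2:**
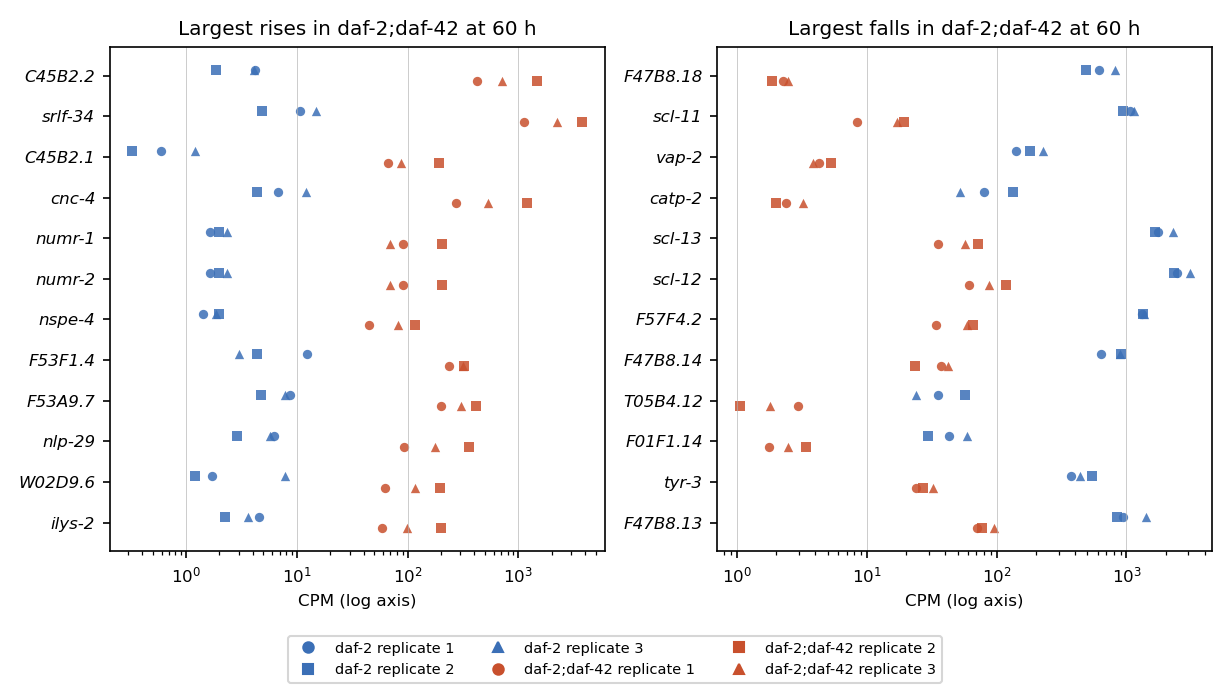
CPM on a log axis in each 60 h library for the 12 largest rises (left) and the 12 largest falls (right), with blue for daf-2, red for daf-2;daf-42 and marker shape for the replicate. No gene has overlapping groups, since the genes were chosen so, and double-mutant replicate 2 is the highest library in all 12 rises.

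Antimicrobial peptide genes of the epidermis, the caenacins (cnc) and a set of nlp genes that respond to fungal infection and wounding, rose together. Of 20 tested epidermal antimicrobial peptides, 17 rose and 0 fell, 9 of them stable, and the calls numbered 9 without daf-2 replicate 1 and 20 without double-mutant replicate 1. The higher calls were 85% of the list, against 8.72% over all genes. The median log2 fold change of the 20 was 3.05, and 2.30 with the length offset, under which all 20 were called higher, against 13.9% of all genes. Their transcripts are short, with a median of 355 bases. In no member did the libraries of the groups overlap, which held for 39.7% of all genes. The 3 not called without the offset were nlp-33 (1.83, adjusted p = 0.0569), cnc-9 (1.58, 0.0682) and cnc-10 (1.28, 0.0737).

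The values of cnc-4 were 6.75, 4.35 and 12.2 CPM in daf-2 and 276, 1186 and 530.5 CPM in the double mutant. Its log2 fold change was 6.42 (SE 0.738, adjusted p = 0.00201), and 5.70 with the offset. nlp-29 was measured at 6.18, 2.88 and 5.74 CPM in daf-2 and 92.4, 358 and 177 CPM in the double mutant. This gene, a common reporter of epidermal infection and injury, rose by 5.40 (SE 0.617, adjusted p = 0.00195). In daf-2 cnc-2 was at 1.01, 0.229 and 0.84 CPM, and in the double mutant at 9.52, 43.9 and 15.4 CPM. nlp-25 stood at 0.149, 0.0327 and 0.264 CPM in daf-2 and at 1.53, 7.4 and 4.4 CPM in the double mutant. These rose by 5.02 and 4.80. The values of nlp-31 were 88, 69 and 191 CPM in daf-2 and 378, 1242 and 748 CPM in the double mutant. nlp-34 was measured at 135, 98.6 and 254 CPM in daf-2 and 416, 1237 and 786 CPM in the double mutant. Both were already well expressed in daf-2 and rose by 2.77 and 2.32. In these genes daf-2 replicate 2 was the lowest and double-mutant replicate 2 the highest library, the libraries with the most opposed length trends. Members rose in both gene clusters of the family, with cnc-11, cnc-1, cnc-4, cnc-3 and cnc-2 called between 1442342 and 1450183 and nlp-34, nlp-31, nlp-30, nlp-29, nlp-28 and nlp-27 called between 3978825 and 3989770 on chromosome V. nlp-31 lost its call when daf-2 replicate 1 or 2 or double-mutant replicate 3 was left out (highest adjusted p 0.08). The calls of nlp-34 and cnc-3 were lost when daf-2 replicate 1 or 2 or double-mutant replicate 2 or 3 was left out (highest adjusted p 0.0979 and 0.123). cnc-11 and nlp-27 lost their calls when daf-2 replicate 1 was left out (highest adjusted p 0.0644 and 0.0541). The call of nlp-28 was lost when any library other than double-mutant replicate 1 was left out (highest adjusted p 0.119).

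**Figure D3:**
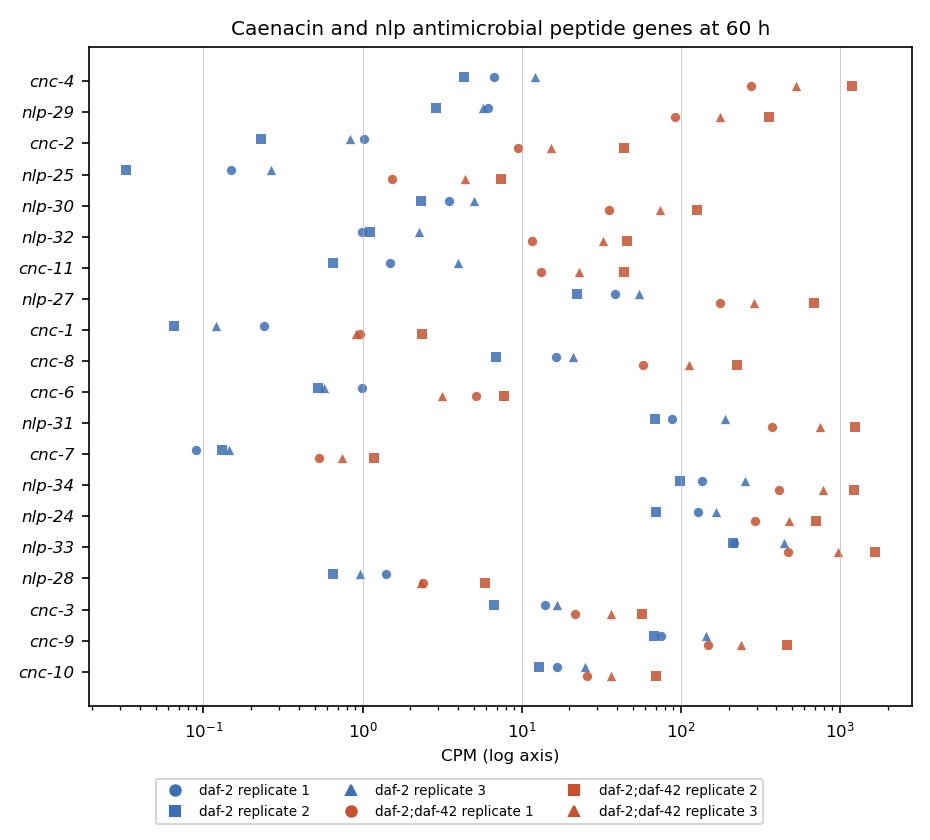
CPM on a log axis in each 60 h library for the 20 tested caenacin and nlp antimicrobial peptide genes, ordered by log2 fold change, with blue for daf-2, red for daf-2;daf-42 and marker shape for the replicate. In each gene the red points lie to the right of the blue points, by most in cnc-4 and least in cnc-10.

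Other defence genes moved in both directions. The share called was 53.85% of lysozymes and 40.0% of fungus-induced peptides, against 14.6% over all genes (8.72% higher and 5.9% lower). Of 13 tested lysozymes, 6 rose and 1 fell, 1 of them stable, and the calls numbered 1 without daf-2 replicate 1 and 7 without double-mutant replicate 1. The median log2 fold change was 1.51 and 1.14 with the offset. In daf-2 ilys-2 was at 4.57, 2.26 and 3.62 CPM, and in the double mutant at 58.8, 201 and 98 CPM. This invertebrate-type lysozyme rose by 5.09 (SE 0.556, adjusted p = 0.0016) and was the stable one. lys-7 stood at 156, 102 and 286 CPM in daf-2 and at 434, 682 and 719 CPM in the double mutant. The values of lys-1 were 71, 43.1 and 124 CPM in daf-2 and 188, 293 and 301 CPM in the double mutant. The lysozymes lys-7 and lys-1 rose by 1.75 and 1.71, and lys-2 by 2.23. Of 20 tested fungus-induced peptides, 7 rose and 1 fell, 3 of them stable, and the calls numbered 4 without daf-2 replicate 1 and 10 without daf-2 replicate 3. The median was 1.26 and 0.62 with the offset. fip-1 was measured at 1.25, 1.21 and 1.3 CPM in daf-2 and 13.7, 24.7 and 12 CPM in the double mutant. It rose by 3.74, while fipr-25 was at 0.836, 0.752 and 0.72 CPM in daf-2 and at 0, 0.031 and 0.0267 CPM in the double mutant. lys-7 and lys-1 lost their calls when daf-2 replicate 1 or 2 or double-mutant replicate 2 or 3 was left out (highest adjusted p 0.13 and 0.125). The call of lys-2 was lost when daf-2 replicate 1 or double-mutant replicate 3 was left out (highest adjusted p 0.08).

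Of 35 tested saposin-like, defensin-like and thaumatin-like defence genes, 8 rose and 2 fell, 2 of them stable, and the calls numbered 2 without double-mutant replicate 3 and 19 without double-mutant replicate 1. The share called was 28.57%, against 14.6% over all genes (8.72% higher and 5.9% lower). The median was 1.09 and 0.67 with the offset. The falls were the stable ones. In daf-2 spp-11 was at 151, 172 and 144 CPM, and in the double mutant at 17.7, 26.8 and 15.9 CPM. This saposin-like gene fell by 2.95 (SE 0.3, adjusted p = 0.00125), and spp-29 by 2.03. C-type lectins are carbohydrate-binding proteins, some of them linked to immunity. Of 115 tested C-type lectins, 29 rose and 9 fell, 16 of them stable, and the calls numbered 17 without double-mutant replicate 3 and 45 without double-mutant replicate 1. In all 33% were called, and the median was 0.43. clec-210 stood at 1.14, 0.883 and 1.66 CPM in daf-2 and at 9.3, 14.4 and 9.95 CPM in the double mutant. It rose by 3.18, and clec-135 fell by 3.45. clec-121 was at 0.119, 0 and 0 CPM in daf-2 and at 1.97, 4.21 and 2.37 CPM in the double mutant. The pals genes are linked to the response to intracellular pathogens, and 24.14% of those tested were called. Of 29 tested pals genes, 6 rose and 1 fell, 2 of them stable, and the calls numbered 2 without daf-2 replicate 1 and 9 without double-mutant replicate 1. The values of pals-24 were 12, 9.91 and 9.57 CPM in daf-2 and 42.5, 74.5 and 40 CPM in the double mutant. It rose by 2.32 and pals-23 by 1.67.

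Collagens were called about as often as genes at large, with large changes in a few. Of 163 tested collagen genes, 14 rose and 7 fell, 7 of them stable, and the calls numbered 8 without double-mutant replicate 3 and 34 without double-mutant replicate 1. The share called was 12.9%, against 14.6% over all genes, and the median was 0.32. With the offset 25 of the 163 were called higher and 15 lower, against 13.9% and 11.5% of all genes, and the median was 0.15. col-108 was measured at 2709, 1979 and 4054 CPM in daf-2 and 216, 371 and 271 CPM in the double mutant. This collagen fell by 3.35 (SE 0.436, adjusted p = 0.00336). In daf-2 col-19 was at 0.179, 0.294 and 0.168 CPM, and in the double mutant at 3.52, 4.03 and 4.8 CPM. This collagen, known from the adult cuticle, rose by 4.27. col-140 stood at 0.657, 0.425 and 0.552 CPM in daf-2 and at 12.8, 5.88 and 10.4 CPM in the double mutant. It rose by 4.14, and col-137 by 4.08. Of the furrow collagens, which pattern the rings of the cuticle, 1 rose and 0 fell of 6 tested, not stable, and the calls numbered 0 without daf-2 replicate 1 and 3 without double-mutant replicate 1. The one was dpy-2 (1.09, adjusted p = 0.0432). dpy-2 lost its call when any library other than double-mutant replicate 1 was left out (highest adjusted p 0.146).

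Cuticlins are insoluble proteins of the cuticle. The share called was 24.2% of cuticlins and 13.3% of moulting genes, against 14.6% over all genes. Of 33 tested cuticlins, 6 rose and 2 fell, 3 of them stable, and the calls numbered 3 without double-mutant replicate 3 and 8 without double-mutant replicate 1. The values of cut-2 were 3.13, 1.54 and 0.816 CPM in daf-2 and 40.9, 26.8 and 54.1 CPM in the double mutant. It rose by 4.48 (SE 0.535, adjusted p = 0.00234). cutl-3 was measured at 20.9, 18 and 20.9 CPM in daf-2 and 5.93, 4.96 and 5.68 CPM in the double mutant. It fell by 1.85. Of 30 tested moulting genes, 3 rose and 1 fell, 2 of them stable, and the calls numbered 2 without daf-2 replicate 1 and 10 without double-mutant replicate 1. Their median was -0.33, and 0.22 with the offset, under which 8 of the 30 were called higher and 2 lower, against 13.9% and 11.5% of all genes. In daf-2 nas-37 was at 82.6, 118 and 71.6 CPM, and in the double mutant at 19, 15.9 and 17 CPM. This astacin protease, which digests the old cuticle at the moult, fell by 2.39 (SE 0.274, adjusted p = 0.00199). mlt-3 stood at 23.8, 18.8 and 23.5 CPM in daf-2 and at 56.2, 66.4 and 69.6 CPM in the double mutant. It rose by 1.54. Of 28 tested astacin metalloproteases, 4 rose and 4 fell, 5 of them stable, and the calls numbered 5 without daf-2 replicate 1 and 10 without double-mutant replicate 1. This is 28.6% called. The values of nas-38 were 33, 45.7 and 29.6 CPM in daf-2 and 149, 172 and 213 CPM in the double mutant. It rose by 2.30, nas-9 rose by 2.55 and nas-4 fell by 1.81, all 3 stable.

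Hedgehog-related and patched-related genes are families linked to moulting and the epidermis. Of 81 tested hedgehog-related and patched-related genes, 13 rose and 10 fell, 6 of them stable, and the calls numbered 7 without double-mutant replicate 3 and 23 without double-mutant replicate 1. The share called was 28.4%, against 14.6% over all genes, and the median was 0.02. ptr-1 was measured at 30.9, 34 and 34.4 CPM in daf-2 and 222, 241 and 301 CPM in the double mutant. This patched-related gene rose by 2.94 (SE 0.27, adjusted p = 0.000924), and more, 3.72, with the offset. In daf-2 grl-30 was at 2.54, 2.81 and 5.16 CPM, and in the double mutant at 0.187, 0.526 and 0.4 CPM. It fell by 3.23. Of 59 tested pharyngeal cuticle abu and pqn genes, 0 rose and 3 fell, 1 of them stable, and the calls numbered 1 without daf-2 replicate 1 and 14 without double-mutant replicate 1. This is 5.08% called with all 6 libraries. abu-7 stood at 4.57, 4.25 and 1.15 CPM in daf-2 and at 0.281, 0.0929 and 0.32 CPM in the double mutant. It fell by 3.80, but it shares reads with near copies in all 12 libraries. Of 18 tested basement membrane and adhesion genes, 0 rose and 2 fell, none of them stable, and the calls numbered 0 without daf-2 replicate 1 and 8 without double-mutant replicate 1. These, 11.1% of the list, were the spectraplakin gene vab-10 (-3.01) and the hemidesmosome gene mup-4 (-2.19, and -0.66 with the offset). The median of this list was -1.25 without and 0.33 with the offset, so its sign turned, and its transcripts are long, with a median of 5937 bases. The calls of vab-10 and mup-4 were lost when daf-2 replicate 1 or 2 or double-mutant replicate 2 or 3 was left out (highest adjusted p 0.153 and 0.158).

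Genes of detoxification rose more often than they fell, but so did genes at large, where 59.6% of calls were rises. Of all tested genes 14.6% were called, 8.72% higher and 5.9% lower. Of 65 tested UDP-glucuronosyltransferases, 19 rose and 8 fell, 15 of them stable, and the calls numbered 16 without double-mutant replicate 3 and 27 without double-mutant replicate 1. Calls came to 41.5% of those tested, 29.2% higher and 12.3% lower, and the median was 0.45 and 0.62 with the offset. These enzymes add sugars to lipophilic compounds. The values of ugt-31 were 2.69, 2.62 and 1.63 CPM in daf-2 and 26.1, 49.2 and 26.4 CPM in the double mutant. It rose by 3.88 (SE 0.368, adjusted p = 0.000984). ugt-27 was measured at 30.5, 27.9 and 22.4 CPM in daf-2 and 2.18, 2.63 and 2.53 CPM in the double mutant. In daf-2 ugt-59 was at 26.5, 29.4 and 42.1 CPM, and in the double mutant at 3.03, 3.69 and 2.56 CPM. These fell by 3.46 and 3.40. Of the stable calls, 10 were rises and 5 falls.

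Cytochrome P450 enzymes oxidise hormones and foreign compounds. Of 70 tested cytochrome P450 genes, 15 rose and 7 fell, 9 of them stable, and the calls numbered 9 without double-mutant replicate 3 and 22 without daf-2 replicate 3. Calls came to 31.4%, 21.4% higher and 10.0% lower, against 14.6% over all genes. The median was 0.20. cyp-14A5 stood at 23.3, 23.4 and 24.7 CPM in daf-2 and at 183, 341 and 281 CPM in the double mutant. It rose by 3.49 (SE 0.327, adjusted p = 0.000971). The values of cyp-13A4 were 0.597, 0.36 and 0.552 CPM in daf-2 and 9.45, 12.1 and 7.89 CPM in the double mutant. cyp-13A5 was measured at 26.9, 19.4 and 24.6 CPM in daf-2 and 175, 225 and 167 CPM in the double mutant. They rose by 4.27 and 3.00, and cyp-13A8 by 3.51. Of 46 tested glutathione S-transferases, 14 rose and 1 fell, 6 of them stable, and the calls numbered 7 without daf-2 replicate 1 and 19 without daf-2 replicate 3. Calls reached 32.6%, 30.4% higher and 2.17% lower, and the median was 0.99 and 0.62 with the offset. In daf-2 gst-4 was at 119.5, 87.3 and 158 CPM, and in the double mutant at 496, 1048 and 511 CPM. This gene, widely used as a reporter of oxidative stress, rose by 2.50 (SE 0.426, adjusted p = 0.00961). gst-24 stood at 4.09, 1.96 and 5.09 CPM in daf-2 and at 40.6, 79.9 and 32.5 CPM in the double mutant. It rose by 3.77, and gst-38 by 2.47. Of 27 tested antioxidant enzymes, 5 rose and 1 fell, none of them stable, and the calls numbered 0 without daf-2 replicate 1 and 7 without double-mutant replicate 1. This is 22.2% called. The rises included the glutathione peroxidase gpx-1 (1.80), the superoxide dismutase sod-5 (1.49) and the thioredoxin trx-3 (1.29). gst-4 lost its call when daf-2 replicate 1 was left out (highest adjusted p 0.0501). The call of gpx-1 was lost when daf-2 replicate 1 or 2 was left out (highest adjusted p 0.0619). sod-5 lost its call when daf-2 replicate 1 or 2 or double-mutant replicate 2 or 3 was left out (highest adjusted p 0.12). The call of trx-3 was lost when daf-2 replicate 1 or 2 or double-mutant replicate 3 was left out (highest adjusted p 0.0842).

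Sensory genes were called in both directions. The share called was 29.8% of chemoreceptors and 27.3% of guanylyl cyclases, against 14.6% over all genes. It was 6.25% of ciliary genes, 8.33% of synaptic genes and 5.36% of neuropeptide-like genes, which follow. Of the 1308 annotated chemoreceptors on the list, 359 passed the count filter. Of 359 tested chemoreceptors, 29 rose and 78 fell, 40 of them stable, and the calls numbered 42 without double-mutant replicate 3 and 104 without double-mutant replicate 1. Their median log2 fold change was -0.43 (the same with srbc-23, at 0 in each double-mutant library, set to the bound that 3 counts over that group give) and -0.60 with the offset. Chemoreceptor genes are known for expression in few cells, and a receptor could enter the test through the daf-2 libraries alone, so neither these counts nor the median give a direction for the family. The values of str-222 were 0.866, 0.883 and 1.44 CPM in daf-2 and 0, 0.031 and 0.0267 CPM in the double mutant. srbc-23 was measured at 0.418, 0.458 and 0.456 CPM in daf-2 and 0, 0 and 0 CPM in the double mutant. In daf-2 srh-132 was at 0.508, 0.36 and 0.48 CPM, and in the double mutant at 0.0312, 0 and 0 CPM. In these genes the double-mutant libraries were at or near 0. Of the falls 27 were stable, and of the rises 13.

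Of 33 tested guanylyl cyclases, 1 rose and 8 fell, 1 of them stable, and the calls numbered 1 without double-mutant replicate 3 and 11 without double-mutant replicate 1. With the offset 3 of the 8 falls kept their call in the same direction. Their median turned from -0.64 to 0.10, and their transcripts are long, with a median of 3329 bases. gcy-27 stood at 1.76, 2.09 and 1.49 CPM in daf-2 and at 0.468, 0.712 and 0.48 CPM in the double mutant. It fell by 1.68 (adjusted p = 0.0125) and by 1.40 with the offset. Of 64 tested genes of the sensory cilium and intraflagellar transport, 1 rose and 3 fell, none of them stable, and the calls numbered 0 without daf-2 replicate 1 and 16 without double-mutant replicate 1. The falls were the kinesin gene osm-3 (-1.75), arl-3 (-1.14) and dyf-5 (-0.74). Of 36 tested synaptic and neurosecretory genes, 0 rose and 3 fell, none of them stable, and the calls numbered 0 without daf-2 replicate 1 and 15 without double-mutant replicate 1. These 3 encode enzymes that make transmitters, cat-2 for dopamine (-0.97), cha-1 for acetylcholine (-0.97) and tph-1 for serotonin (-0.94). None of the 30 tested FMRFamide-like neuropeptides was called (0 at an unadjusted p under 0.05, 0 with DESeq2 and 13 with voom). The voom fit gave daf-2 replicate 1 a weight of 4.1 and double-mutant replicate 3 one of 4.74, against 0.347 to 0.561 elsewhere. Its counts, here and below, thus rest mainly on those libraries. Among all 15687 tested genes, 5707 were at an unadjusted p under 0.05, 4313 were called by DESeq2 and 8881 by voom. Of 56 tested neuropeptide-like genes outside the antimicrobial cluster, 2 rose and 1 fell, 1 of them stable, and the calls numbered 1 without daf-2 replicate 2 and 8 without daf-2 replicate 3. The values of nlp-45 were 9.91, 8.28 and 8.13 CPM in daf-2 and 2.59, 1.7 and 1.76 CPM in the double mutant. It fell by 2.12 (SE 0.251, adjusted p = 0.00224) and was the stable one. gcy-27 lost its call when double-mutant replicate 3 was left out (highest adjusted p 0.0705). The calls of osm-3 and arl-3 were lost when daf-2 replicate 1 or 2 or double-mutant replicate 2 or 3 was left out (highest adjusted p 0.147 and 0.0913). dyf-5, cat-2, cha-1 and tph-1 lost their calls when any library other than double-mutant replicate 1 was left out (highest adjusted p 0.188, 0.147, 0.113 and 0.146).

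Genes of the pathways that set dauer entry were called in shares on both sides of the 14.6% over all genes. The share was 19.2% among insulin-like peptides, 20.0% among genes of dafachronic acid synthesis and its receptor, 12.5% among ascaroside genes, 10.0% among heterochronic genes and 5.88% in the insulin receptor pathway. Of 26 tested insulin-like peptides, 4 rose and 1 fell, 1 of them stable, and the calls numbered 1 without daf-2 replicate 1 and 7 without daf-2 replicate 3. ins-20 was measured at 0.508, 0.0654 and 0.408 CPM in daf-2 and 22.5, 61.1 and 29.1 CPM in the double mutant. Its log2 fold change of 6.80 (SE 0.68, adjusted p = 0.00118) was stable and was 6.11 with the offset. In daf-2 ins-6 was at 7.11, 5.92 and 9.43 CPM, and in the double mutant at 3.03, 3.9 and 3.97 CPM. This agonist of the receptor fell by 1.04 (adjusted p = 0.0327). Of the insulin receptor to DAF-16 pathway, 1 rose and 0 fell of 17 tested, not stable, and the calls numbered 0 without daf-2 replicate 2 and 6 without double-mutant replicate 1. The riser was the kinase gene sgk-1 (1.07). None of the 7 tested genes of the TGF-beta dauer pathway was called (4 at an unadjusted p under 0.05, 1 with DESeq2 and 6 with voom, and 4 without double-mutant replicate 1), and the ligand gene daf-7 stood at a log2 fold change of -0.34 (adjusted p = 0.404). Among all 15687 tested genes, 5707 were at an unadjusted p under 0.05, 4313 were called by DESeq2 and 8881 by voom. Of the genes of dafachronic acid synthesis and its receptor, 1 rose and 1 fell of 10 tested, none of them stable, and the calls numbered 0 without daf-2 replicate 1 and 4 without double-mutant replicate 1. The gene dhs-16 was higher (1.08) and hsd-1 lower (-1.80). Of the heterochronic genes, which time larval stages, 0 rose and 1 fell of 10 tested, a stable call, and the calls numbered 1 without daf-2 replicate 1 and 5 without double-mutant replicate 1. lin-46 stood at 7.41, 7.56 and 10.9 CPM in daf-2 and at 2.4, 3.28 and 2.03 CPM in the double mutant. This gene fell by 1.75 (SE 0.278, adjusted p = 0.00731) and was stable. Ascarosides include the dauer pheromones. Of 40 tested ascaroside biosynthesis genes, 4 rose and 1 fell, 1 of them stable, and the calls numbered 1 without daf-2 replicate 2 and 7 without double-mutant replicate 1. The values of cest-30 were 4.78, 5.3 and 3.38 CPM in daf-2 and 0.0936, 0.186 and 0.107 CPM in the double mutant. It fell by 5.09 and was stable. The call of ins-6 was lost when any library other than daf-2 replicate 2 was left out (highest adjusted p 0.105). sgk-1 lost its call when daf-2 replicate 2 or 3 or double-mutant replicate 2 or 3 was left out (highest adjusted p 0.112). The call of dhs-16 was lost when daf-2 replicate 1 or 2 or double-mutant replicate 3 was left out (highest adjusted p 0.102). hsd-1 lost its call when any library other than double-mutant replicate 1 was left out (highest adjusted p 0.116).

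With all 6 libraries genes of general cell functions were seldom called, histones excepted, but some of these lists had more calls without double-mutant replicate 1. So did genes at large, with 3912 of 16087 called without that library against 2294 of 15687 with it. Over all genes 14.6% were called. Of the 15687 tested, 5707 were at an unadjusted p under 0.05, 4313 were called by DESeq2 and 8881 by voom. The share called by edgeR was 3.23% of proteasome subunits, 8.70% of ribosome biogenesis genes, 4.65% of sarcomere genes and 34.8% of histones. None of the 79 tested cytosolic ribosomal proteins was called (6 at an unadjusted p under 0.05, 3 with DESeq2 and 40 with voom), and their median was 0.70 without and 0.18 with the offset. Their summed level was 60450, 42260 and 60250 CPM in daf-2 and 68840, 94760 and 70540 CPM in the double mutant, highest in the replicate that was lowest in long transcripts. None of the 66 tested nuclear genes of the respiratory chain was called (3 at an unadjusted p under 0.05, 2 with DESeq2 and 41 with voom), nor was any of 66 mitochondrial ribosomal protein genes (1, 0 and 11 by the same measures) or of 21 vacuolar ATPase genes (1, 0 and 10, and 2 called without double-mutant replicate 1). All 12 tested genes of the mitochondrial genome were uncalled (0, 0 and 7), with a median of 0.52. None of the 57 tested cell cycle and DNA replication genes was called (12 at an unadjusted p under 0.05, 5 with DESeq2 and 23 with voom, and 7 without double-mutant replicate 1). Of 31 tested proteasome subunits, 1 rose and 0 fell, not stable. With the offset 11 of the 31 were called higher, against 13.9% of all genes. Of 23 tested ribosome biogenesis genes, 0 rose and 2 fell, none of them stable, and the calls numbered 0 without daf-2 replicate 1 and 7 without double-mutant replicate 1. Of 43 tested sarcomere genes, 0 rose and 2 fell, none of them stable, and the calls numbered 0 without daf-2 replicate 1 and 12 without double-mutant replicate 1. These were the troponin I gene tni-3 (-1.33) and dyc-1 (-1.81). Of 69 tested histones, 10 rose and 14 fell, 11 of them stable, and the calls numbered 14 without double-mutant replicate 3 and 35 without double-mutant replicate 1. Of the tested histone genes 52 share reads with near copies, so the calls are fewer independent signals. The calls of tni-3 and dyc-1 were lost when daf-2 replicate 1 or 2 or double-mutant replicate 2 or 3 was left out (highest adjusted p 0.174 and 0.166).

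Stress and death genes were tested since the double-mutant harvest contained dead larvae. Over all genes 14.6% were called. Of the 15687 tested, 5707 were at an unadjusted p under 0.05, 4313 were called by DESeq2 and 8881 by voom. The share called by edgeR was 9.09% of mitochondrial stress genes, 7.69% of calpains and lysosomal proteases, 3.57% of autophagy genes and 22.7% of intestinal proteases. None of the 17 tested small heat shock protein and HSP-70 genes was called (5 at an unadjusted p under 0.05, 4 with DESeq2 and 14 with voom, and 6 without daf-2 replicate 3), although 13 of 17 had a fold change above 0, with a median of 0.82. The 6 calls without daf-2 replicate 3 were rises, with a median of 1.27 over the list. hsp-70 was measured at 178, 109.7 and 566 CPM in daf-2 and 233, 214 and 485 CPM in the double mutant. In daf-2 hsp-1 was at 2109, 1849 and 1429 CPM, and in the double mutant at 1853, 442 and 1207 CPM. The groups overlapped in both genes. None of the 18 tested ER chaperone and unfolded protein response genes was called (2 at an unadjusted p under 0.05, 1 with DESeq2 and 5 with voom, and 1 without double-mutant replicate 1). Of 11 tested mitochondrial chaperone and stress response genes, 0 rose and 1 fell, not stable, and the calls numbered 0 without daf-2 replicate 1 and 3 without double-mutant replicate 1. It was the transcription factor gene dve-1 (-1.49). Of the genes of cell death and corpse clearance, 4 rose and 1 fell of 30 tested, 2 of them stable, and the calls numbered 2 without daf-2 replicate 1 and 4 without daf-2 replicate 3. This is 16.7% called, near the 14.6% over all genes, so the counts give no trait of this list. crn-4 stood at 1.49, 1.01 and 1.27 CPM in daf-2 and at 3.37, 7.71 and 5.28 CPM in the double mutant. The values of crn-2 were 6.69, 6.28 and 7.49 CPM in daf-2 and 16.3, 28.5 and 17.7 CPM in the double mutant. These nucleases, which degrade DNA in dying cells, rose by 2.11 and 1.61 and were stable. Of 13 tested calpain and lysosomal protease genes linked to necrosis, 0 rose and 1 fell, not stable. It was the calpain clp-1 (-1.73). Of 28 tested autophagy genes, 0 rose and 1 fell, not stable, and the calls numbered 0 without daf-2 replicate 1 and 3 without double-mutant replicate 1. It was atg-9 (-1.55). Of 22 tested intestinal aspartyl and cysteine proteases, 4 rose and 1 fell, 3 of them stable, and the calls numbered 3 without daf-2 replicate 1 and 7 without daf-2 replicate 3. asp-9 was measured at 451, 546 and 654 CPM in daf-2 and 64.8, 115 and 96.5 CPM in the double mutant. It fell by 2.58. In daf-2 cpr-3 was at 11.1, 8.67 and 9.72 CPM, and in the double mutant at 38.2, 45 and 54.8 CPM. It rose by 2.23, and asp-12 by 1.46, and all 3 were stable. dve-1 and clp-1 lost their calls when daf-2 replicate 1 or 2 or double-mutant replicate 2 or 3 was left out (highest adjusted p 0.126 and 0.119). The call of atg-9 was lost when any library other than double-mutant replicate 1 was left out (highest adjusted p 0.128).

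Metabolic genes were called at 6.10% in lipid breakdown, 23.1% among fatty acid desaturases and elongases and 8.70% among trehalose and glyoxylate genes, against 14.6% over all genes. Of genes of lipid breakdown, 3 rose and 2 fell of 82 tested, 1 of them stable, and the calls numbered 1 without double-mutant replicate 3 and 9 without daf-2 replicate 3. Of fatty acid desaturases and elongases, 3 rose and 0 fell of 13 tested, none of them stable. Of trehalose and glyoxylate genes, 0 rose and 2 fell of 23 tested, 1 of them stable. acdh-2 stood at 2.9, 2.91 and 0.984 CPM in daf-2 and at 14.3, 17.5 and 17.2 CPM in the double mutant. This acyl-CoA dehydrogenase rose by 2.86 (SE 0.407, adjusted p = 0.00474). The values of acs-2 were 547, 495 and 547 CPM in daf-2 and 208, 103 and 232 CPM in the double mutant. This acyl-CoA synthetase, known to be induced by fasting, fell by 1.55. tre-5 was measured at 29.2, 35.3 and 40.8 CPM in daf-2 and 8.33, 6.32 and 7.81 CPM in the double mutant. This trehalase fell by 2.23 (SE 0.234, adjusted p = 0.00141). The elongases elo-4, elo-5 and elo-9 rose by 1.64, 1.09 and 1.06. acs-2 and elo-5 lost their calls when any library other than double-mutant replicate 1 was left out (highest adjusted p 0.101 and 0.125). The call of elo-4 was lost when daf-2 replicate 1 or 2 or double-mutant replicate 3 was left out (highest adjusted p 0.0804). elo-9 lost its call when daf-2 replicate 1 or 2 or double-mutant replicate 2 or 3 was left out (highest adjusted p 0.103).

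Of the families of adaptor and receptor proteins, F-box genes were called at 35.4% and MATH, BATH and Skp1-related genes at 12.5%, against 14.6% over all genes. Of 158 tested F-box proteins, 45 rose and 11 fell, 23 of them stable, and the calls numbered 28 without double-mutant replicate 3 and 58 without double-mutant replicate 1. Their median was 0.63 and 0.48 with the offset. F-box proteins pick substrates for ubiquitin ligases. In daf-2 fbxa-42 was at 3.25, 3.24 and 2.93 CPM, and in the double mutant at 0.187, 0.217 and 0.133 CPM. It fell by 4.12 (SE 0.305, adjusted p = 0.000596). fbxc-58 stood at 1.79, 1.15 and 1.78 CPM in daf-2 and at 15.6, 31.9 and 9.15 CPM in the double mutant. It rose by 3.58. Of 64 tested MATH, BATH and Skp1-related genes, 8 rose and 0 fell, 4 of them stable, and the calls numbered 4 without daf-2 replicate 2 and 9 without double-mutant replicate 1. Among the rises was math-37 (1.95). Of 210 tested nuclear hormone receptors, 23 rose and 3 fell, 11 of them stable, and the calls numbered 11 without daf-2 replicate 2 and 37 without double-mutant replicate 1. The share called was 12.4%, against 14.6% over all genes. The values of nhr-112 were 0.627, 0.589 and 0.84 CPM in daf-2 and 3.9, 5.05 and 5.68 CPM in the double mutant. nhr-3 was measured at 23.6, 23.6 and 22.3 CPM in daf-2 and 60.1, 85.7 and 62.6 CPM in the double mutant. These rose by 2.82 and 1.59.

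Transthyretin-related proteins are mostly secreted. The share called was 33.3% of transthyretin-related genes, 57.1% of O-acyltransferases and 28.6% of irld genes, against 14.6% over all genes. Of 48 tested transthyretin-related genes, 13 rose and 3 fell, 6 of them stable, and the calls numbered 6 without daf-2 replicate 1 and 24 without double-mutant replicate 1. The median was 1.00 and 0.43 with the offset. In daf-2 ttr-30 was at 20.1, 14.4 and 21.9 CPM, and in the double mutant at 269, 673 and 466 CPM. It rose by 4.64 (SE 0.447, adjusted p = 0.00101). ttr-19 stood at 32.3, 28.8 and 32.6 CPM in daf-2 and at 3.34, 8.39 and 2.61 CPM in the double mutant. It fell by 2.71. The oac genes encode acyltransferase-like membrane proteins. Of 28 tested O-acyltransferases, 11 rose and 5 fell, 8 of them stable, and the calls numbered 8 without daf-2 replicate 1 and 13 without double-mutant replicate 1. This is 57.1% called. The values of oac-55 were 8.75, 12.7 and 10.3 CPM in daf-2 and 0.499, 0.31 and 0.347 CPM in the double mutant. It fell by 4.77 (SE 0.302, adjusted p = 0.000449). oac-6 was measured at 1.1, 0.72 and 0.336 CPM in daf-2 and 7.92, 5.95 and 7.36 CPM in the double mutant. It rose by 3.31 and was already called at 52 h. In daf-2 oac-25 was at 2, 2.98 and 3.19 CPM, and in the double mutant at 0, 0 and 0.0533 CPM. Of 14 tested receptor L-domain irld genes, 2 rose and 2 fell, 2 of them stable. irld-53 was at 14.1, 20.4 and 8.62 CPM in daf-2 and at 0.125, 0.0619 and 0.107 CPM in the double mutant. It shares reads with irld-35, so both are 1 signal, and it too was already called at 52 h (log2 fold change -6.63).

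Together the 59 lists held 2787 distinct tested genes, of which 554 were called (19.9% against 14.6% over all genes). The number was 275 without daf-2 replicate 1, 277 without daf-2 replicate 2, 354 without double-mutant replicate 2 and 239 without double-mutant replicate 3, while it was 748 without double-mutant replicate 1.

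**Figure D4:**
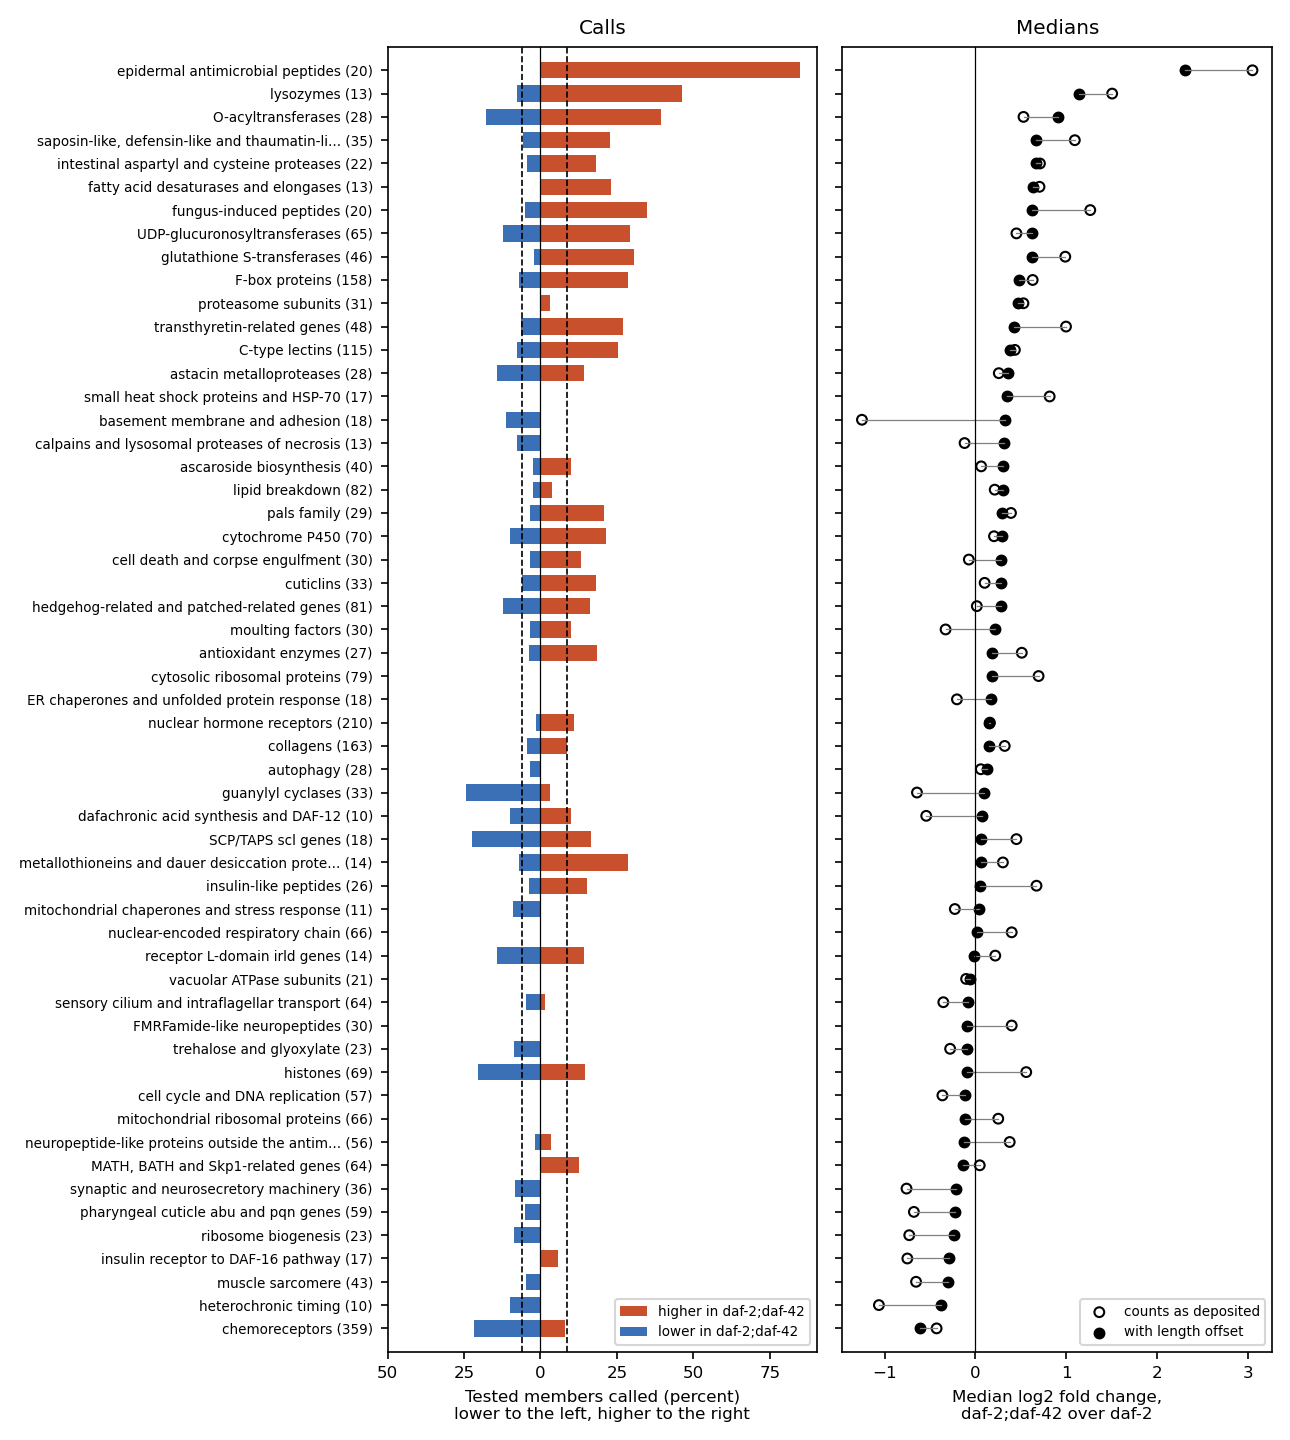
For each list with at least 10 tested members (number in brackets), the share of tested members called higher (red) or lower (blue) in daf-2;daf-42 at 60 h, with dashed lines at the shares over all genes, 8.72% and 5.9%, and at right the median log2 fold change without (open) and with (filled) the length offset. Epidermal antimicrobial peptides stand highest in both panels, and the open points of long-transcript lists such as basement membrane lie far left of their filled points.

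Tissue markers were seldom called with all 6 libraries. None of the markers of hypodermis (8 tested), seam cells (9), body wall muscle (8), pharyngeal muscle (8), pharyngeal glands (8), neurons (12) or glia (7) was called, while of these 60 genes 13 were at an unadjusted p under 0.05, 11 were called by DESeq2 and 27 by voom. Over all 15687 tested genes these measures gave 5707, 4313 and 8881. Without double-mutant replicate 1 the calls numbered 3 each in hypodermis, body wall muscle and pharyngeal muscle, 2 in pharyngeal glands, 1 each in neurons and glia and 0 in seam cells. Without that library 3912 of all 16087 tested genes were called. The summed body wall muscle markers were 16180, 42680 and 14490 CPM in daf-2 and 10380, 6034 and 8891 CPM in the double mutant. No double-mutant library reached the lowest daf-2 library. Among these markers is the long myosin heavy chain gene unc-54. unc-54 stood at 8027, 27650 and 6393 CPM in daf-2 and at 4695, 1234 and 2968 CPM in the double mutant. Summed neuron markers were 2311, 2404 and 2246 CPM in daf-2 and 2231, 1543 and 2141 CPM in the double mutant, lower in each double-mutant library. Of 12 intestinal markers, the intermediate filament genes ifb-2 (-1.76) and ifc-2 (-2.32) fell and the esterase ges-1 (0.86) rose, while the regulator elt-2 was at 0.42 (adjusted p = 0.219). In coelomocytes, scavenger cells of the body cavity, cup-4 rose (1.02) and snf-1 fell (-1.0), and in the excretory system exc-5 fell (-1.26). snf-1 and exc-5 lost their call with the offset. The calls of ifb-2, ifc-2, cup-4, snf-1 and exc-5 were lost when daf-2 replicate 1 or 2 or double-mutant replicate 2 or 3 was left out (highest adjusted p 0.102, 0.146, 0.119, 0.159 and 0.0965). ges-1 lost its call when any library other than double-mutant replicate 2 was left out (highest adjusted p 0.153).

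Of 12 germ line markers, prg-1, which encodes a Piwi protein, fell (-1.51, adjusted p = 0.0435), while 6 markers were called without double-mutant replicate 1. All 12 had fold changes below 0, with a median of -1.18 and -0.46 with the offset, and summed markers were 410, 830 and 445 CPM in daf-2 and 284, 187 and 307 CPM in the double mutant. Only 1 of 6 vitellogenin genes and 2 of 31 major sperm protein genes passed the count filter, and edgeR called none of these, while the vitellogenin gene and 1 sperm protein gene were at an unadjusted p under 0.05 and were called by DESeq2 and by voom. The part of tissue makeup in the results was not tested. The call of prg-1 was lost when daf-2 replicate 1 or 2 or double-mutant replicate 2 or 3 was left out (highest adjusted p 0.151).

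Called genes were spread unevenly over the chromosomes, as a description. Of tested genes, 12.3% on chromosome V were higher in both fits and 8.43% lower, while on chromosome I 3.93% were higher and 4.05% lower. On X the shares were 7.64% and 5.61%, on II 8.51% and 5.35%, on III 6.03% and 2.86%, and on IV 8.95% and 5.09%.

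The genotype difference at 60 h was set against that at 52 h in 1 fit of all 12 libraries. That fit shares 1 dispersion per gene over both times, although replicates spread more at 60 h (median SD 0.363 and 0.374) than at 52 h (0.184 and 0.206). A shared dispersion tends to understate the spread at 60 h and to overstate it at 52 h. The counts of calls at 52 h and of interaction calls carry this limit. At 52 h 104 of 16371 genes were called (0.635%). The difference between the genotype differences was called in 1558 genes (9.52%), 913 of them with the larger value at 60 h in the direction of the double mutant and 645 in the other. The interaction count ran from 643 without double-mutant replicate 3 of 52 h to 4670 without double-mutant replicate 1 of 60 h, and the single library whose loss moved it by less than 1.5 times was daf-2 replicate 1 of 60 h, with 1054. Of the 2156 genes called at 60 h in both fits, 1171 had an interaction call of the same direction and 88 were already called at 52 h in the same direction. For scl-12 the log2 fold change was -0.62 at 52 h (adjusted p = 0.793), and the interaction was -4.25 (edgeR adjusted p = 0.000202). For tyr-3 it was 0.58 at 52 h, above 0, and the interaction was -4.59 (adjusted p = 0.000112). For cnc-4 it was 0.16 at 52 h, and the interaction was 6.24 (adjusted p = 0.00059). Of the 24 largest rises and falls, 22 had an interaction call, the exceptions being F47B8.14 (-3.06, adjusted p = 0.052) and T05B4.12 (-2.30, 0.598). These genes were chosen for their large changes at 60 h, so that count largely follows from the choice. Some genes already differed at 52 h. The nuclear hormone receptor nhr-112 was at 2.13 at 52 h, cpr-3 at 1.55 and oac-6 at 3.02, each called, with interactions of 0.69, 0.68 and 0.31 that were not called (adjusted p = 0.253, 0.197 and 0.702).

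**Figure D5:**
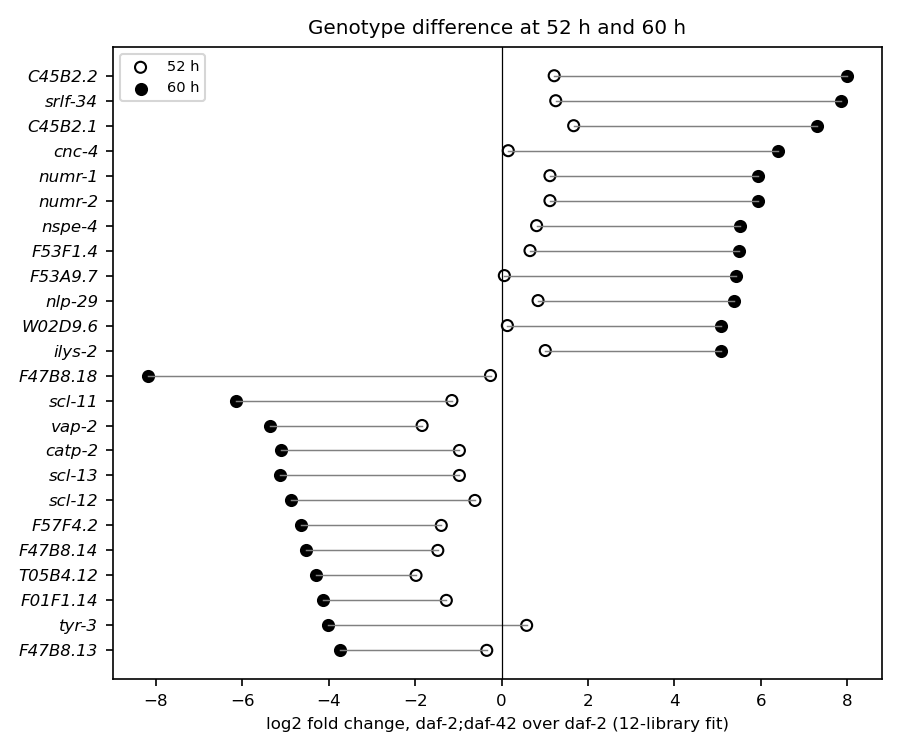
Log2 fold change, daf-2;daf-42 over daf-2, at 52 h (open) and 60 h (filled) in the fit of all 12 libraries, for the 12 largest rises and the 12 largest falls at 60 h, each pair joined by a line. At 52 h the points lie between -1.98 and 1.67, and at 60 h each gene has moved outward.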

How the data were processed

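RNA from whole larvae was made into libraries with a TruSeq stranded mRNA kit, per the labels' protocols, and the authors' deposited tables give estimated counts, TPM, length and effective length for each transcript, per the file headers. Per the submitters' processing notes these come from kallisto 0.46.1 and genome build WBcel235. The strand setting, trimming and index are not given in the sources used here. TPM and effective lengths were used only to describe the libraries.

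Of 36172 transcripts, 31502 matched the Ensembl release 115 annotation exactly, 4581 by sequence name and 89 not at all. Estimated counts were summed over 22113 genes and rounded. The 6 libraries of 60 h were fitted with edgeR 4.0.16 (R 4.3.3, limma 3.58.1), with TMM scaling, filterByExpr and the quasi-likelihood test, and a gene is called at a p under 0.05 after Benjamini-Hochberg adjustment over all genes tested. CPM are counts per 1000000 after TMM scaling, log2 CPM have a prior count of 2, and fold changes are those of the edgeR fit with its default prior count. The SE printed with a fold change was derived from that fold change and the F of its test. It is not a standard error fitted by edgeR. The length offset is a lowess curve (span 0.3) of each library's deviation from the mean log2 CPM on log2 transcript length. The interaction comes from 1 fit of all 12 libraries. DESeq2 1.42.0 and the other alternatives are in the closing section. Single values were compared with exact permutation tests over samples (scipy 1.17.1).

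Genes named are daf-42 and daf-2, the 12 largest rises and falls (called in both fits, no overlap, mean log2 CPM of at least 3), and up to 4 members per list with the largest change called in both fits, or up to 3 by level where none was. Neighbours of these genes on the genome, further antimicrobial peptides and some other list members were named after their values were seen. The groups, lists and members were chosen with earlier results of these data known. A gene is said to share reads where its summed estimated count is not whole in a library (tolerance 0.01). The replicate number was not used to pair samples in the main fits, and whether same-numbered samples belong together was not settled here.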

Additional observations from a re-analysis of the deposited data

Results flagged for a closer look

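Results are gathered here because the genotype difference was not the same at 60 h as at 52 h by the interaction term of edgeR's fit of all 12 libraries. That term was called in 1558 genes. For each gene below the value is the log2 fold change, double mutant over daf-2, at 60 h minus that at 52 h, so a value above 0 means that the double mutant was relatively higher at 60 h. All had an adjusted p under 0.05 over all genes tested in that fit, which had no length offset and shared 1 dispersion per gene over both times. With the length offset the edgeR interaction of some was not called, such as mup-4 (-0.58, adjusted p = 0.123) and exc-5 (-0.46, adjusted p = 0.331). Values of genes at or near 0 CPM in daf-2 at 60 h, such as C45B2.3, C45B2.8 and M02G9.4, depend on the prior count of the fit and are no bound. Among the secreted SCP/TAPS proteins, the interaction was -3.51 for vap-2, -4.14 for scl-13, -4.25 for scl-12 and -5.0 for scl-11. For the F47B8 genes it came to 1.74 for F47B8.5, -3.38 for F47B8.13 and -7.93 for F47B8.18. In the other large falls the values were -2.84 for F01F1.14, -3.26 for F57F4.2, -4.12 for catp-2 and -4.59 for tyr-3. The difference between the times for the C45B2 genes was 10.17 for C45B2.3, 7.60 for C45B2.8, 6.77 for C45B2.2 and 5.62 for C45B2.1. Among the chromosome II cluster, the interaction was 6.60 for srlf-34, 6.01 for M02G9.4, 3.47 for gcy-5 and 1.44 for idpp-8. For metal-responsive genes it came to 4.82 for numr-1, 4.82 for numr-2, 2.76 for cdr-3 and 1.60 for cdr-1. In short peptide genes and genes with no name the values were 5.36 for F53A9.7, 4.94 for W02D9.6, 4.84 for F53F1.4, 4.71 for nspe-4, 3.88 for nspe-1, 2.95 for F53A9.6 and 1.80 for F53A9.8.

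The difference between the times for the epidermal antimicrobial peptides was 6.24 for cnc-4, 5.07 for cnc-2, 4.56 for nlp-25, 4.54 for nlp-29, 3.94 for nlp-30, 3.16 for nlp-27 and 2.35 for nlp-31. Among other defence genes, the interaction was 4.57 for fip-1, 4.07 for ilys-2, 2.78 for clec-210, 2.19 for pals-24, 1.60 for pals-23, -1.57 for spp-29, -2.66 for spp-11 and -4.03 for clec-135. For collagens and cuticlins it came to 4.67 for col-137, 4.29 for col-140, 3.91 for cut-2 and -1.69 for cutl-3. In moulting, pharyngeal cuticle and adhesion genes the values were 2.81 for ptr-1, 2.32 for nas-38, 2.31 for nas-9, 1.72 for mlt-3, -1.66 for nas-4, -2.41 for nas-37, -2.43 for mup-4, -3.57 for vab-10 and -5.87 for abu-7. The difference between the times for glucuronosyltransferases and cytochromes P450 was 4.09 for cyp-13A4, 3.87 for ugt-31, 3.45 for cyp-13A8, 3.13 for cyp-14A5, 2.33 for cyp-13A5, -2.94 for ugt-59 and -3.04 for ugt-27. Among glutathione enzymes, the interaction was 2.98 for gst-24 and 1.82 for gpx-1. For neuronal and ciliary genes it came to -1.23 for cat-2, -1.31 for arl-3, -1.95 for gcy-27 and -2.39 for nlp-45. In dauer signalling and pheromone genes the values were 5.48 for ins-20, 1.11 for dhs-16 and -4.94 for cest-30. The difference between the times for genes of stress, death, autophagy, muscle and proteolysis was 1.58 for crn-2, 1.48 for crn-4, -1.52 for dve-1, -1.69 for atg-9, -1.87 for clp-1, -2.25 for dyc-1 and -2.29 for asp-9. Among metabolic genes, the interaction was 2.16 for acdh-2, 1.78 for elo-4, 1.26 for elo-9, -1.66 for tre-5 and -1.84 for acs-2. For the remaining families it came to 4.04 for ttr-30, 1.70 for nhr-3, 1.08 for math-37 and -4.06 for oac-55. In tissue markers the values were 1.26 for cup-4, -1.01 for snf-1, -1.28 for exc-5, -1.47 for prg-1 and -2.72 for ifc-2. In every gene named here the sign of the interaction was that of the 60 h difference. Most of these genes were chosen by that difference, so the shared sign largely follows from the choice. No group had more than 3 libraries at 60 h, so no library was tested for standing apart within a group.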

How the results depend on the processing

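The count of 2294 genes called at 60 h was 2296 with RLE scaling, 2176 with upper-quartile scaling, 1974 with a filter of 1 CPM in 3 libraries and 2439 with no filter. It was 3981 with the length offset, 4313 with DESeq2, 5626 with all 12 libraries in the fit and 8881 with limma voom and quality weights, but 961 against a minimum fold of 1.5 and 954 for single transcripts. The voom weights were 4.1 for daf-2 replicate 1 and 4.74 for double-mutant replicate 3, against 0.347 to 0.561 for the other libraries. Leaving out 1 library gave 775 to 3912 genes. The interaction count of 1558 was 2501 with the offset, 3412 with DESeq2 and 8130 with voom, and 643 to 4670 without 1 library. The number of called list members, 554, was 821 with the offset, 1037 with 12 libraries and 239 to 748 without 1 library. The length trend, the double-mutant mean of the correlations minus that of daf-2, was -0.52, -0.76 over the better expressed genes (log2 CPM 3 or more), and -0.36 to -0.69 without 1 library. The long-isoform difference was -6.66 percentage points, with -3.85 to -8.71 without 1 library, and both of these replicate checks were chosen after seeing the data. Why these values moved was not tested.

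Replicate numbers are shared between the groups, but same-numbered libraries did not deviate together (Pearson r of their deviations 0.247, -0.656 and 0.114 across genes), and not every library correlated best with its own number. These deviations still held each library's length trend, so they cannot show whether same-numbered samples were raised or prepared together. With the replicate number as a block the count was 500, with block and offset 3402, and the interaction count 921.

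Of the 156 genes named, none changed direction under any alternative run on single genes. Calls kept their side of the threshold in 154 genes with RLE scaling, 150 with DESeq2, 150 with the offset, 115 with the minimum fold and 91 with the block. Of the 146 called, 97 kept their call without each library in turn. The libraries held at least 30011686 estimated counts, so depth limits mainly the genes near 0 CPM.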
